A study of Mus musculus with 6 samples.

Results

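Integrins are cell surface receptors made of 1 alpha and 1 beta chain that bind proteins of the extracellular matrix and, inside the cell, gather a plaque of adaptor proteins, the focal adhesion, that holds the actin cytoskeleton. The alpha chain largely sets the ligand, so that some integrins bind collagen, some laminin and others proteins with an RGD sequence such as fibronectin and vitronectin. Talin and kindlin bind the beta tail and switch the receptor on, vinculin, alpha-actinin, filamin and tensin tie it to actin, and kinases with their scaffolds signal from it. In hepatic stellate cells, the liver pericytes that turn into contractile myofibroblasts after injury, integrins are known to carry attachment to the scar matrix and, through the alpha v chain, activation of latent transforming growth factor beta. The genes described here are 36 listed genes of this system, 19 integrin chains and 17 adaptors. The members are those listed genes that the platform annotation gives a probe set of their own, each read from its brightest one, and 33 of the 36 qualified among 18193 genes in all, 18 integrin chains and 15 adaptors. The collagen receptor gene Itga11, the focal adhesion kinase gene Ptk2 and the scaffold gene Nedd9 were not analysed here.

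Affymetrix arrays measured RNA of cultured murine hepatic stellate cells on the C57Bl/6 background. All cells carried CMV-rtTA and a TRE-driven GFP-shRNA.p53.1224 transgene, in which doxycycline switches on a green fluorescent marker and a hairpin RNA against p53. The 3 proliferating arrays came from cells given doxycycline at 1 ug/ml, labelled as p53 knockdown, and the 3 senescent arrays from control cells labelled as expressing p53. Doxycycline, the knockdown and proliferation go together in these samples and cannot be told apart, and the target transcript of the hairpin was not analysed here. The labels do not state whether the 3 arrays of a condition hold RNA of different mice or dishes. The p-values therefore speak of the spread among these arrays alone, and that spread may be technical. In such bulk RNA, fewer cells of a type and less RNA per cell cannot be told apart.

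The values are RMA levels on the log2 scale, and differences are proliferating minus senescent with the standard error (SE) of the limma fit over all genes. A gene was called where its adjusted p was below 0.05, and 20.0% of the 18193 genes were called. Array medians lay between 6.15 and 6.19. Background is taken as 5.57, below which 95% of 44 probe sets for olfactory receptors lay. The poly-A spike-in probe sets, which report RNA added before labelling, read 0.60 ± 0.17 (SE) lower on the proliferating arrays (exact permutation p = 0.1, two-sided, the smallest that 3 arrays against 3 can give), and their part in the results was not tested beyond the scaling given below. Of 13 measured stellate markers, 10 had means above background in both groups, among them Acta2, Vim and Lox. In proliferating cells 5 of the 13 were higher, as were 10.5% of all genes. These include Col1a1, Col1a2 and Col3a1, which are also in the list of integrin ligand genes below. Lrat, which makes the stored vitamin A esters, Reln and Lhx2 lay below background on every array. All 6 mesothelial markers were above background in both groups, and their mean level ranged from 11.08 to 11.36 on proliferating arrays and from 10.72 to 10.80 on senescent arrays. Of 9 leukocyte markers, 7 were below background on every array, including Ptprc. Of 10 macrophage markers, 4 were below it on every array, including Adgre1, and 6 had means above it in both groups. Among these Csf1r was lower in proliferating cells (-0.35, adjusted p = 0.0129) and the other 5 did not pass, and the part of such cells in the results was not tested.

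Relative to the other genes of the arrays, proliferating cells had less RNA for most of the integrin and adhesion genes that differed. Itga6, a laminin receptor chain, was 2.98-fold lower, and the adaptors Lims2 and Tns1 were 1.92-fold and 1.78-fold lower. Against this, the collagen receptor chain Itga1 was 2.02-fold higher, the vitronectin receptor chain Itgb3 1.29-fold higher and the talin gene Tln2 1.33-fold higher. In all, 11 of the 33 measured genes were lower and 3 were higher in proliferating cells, 42.4% called, and 20.0% of all genes were called. By direction the background was 9.49% of genes lower and 10.5% higher. Among genes with a mean above the olfactory level, 27.4% were called. The members were chosen with earlier results of these data known, and these shares make no allowance for that. Of the 18 integrin chains 5 were lower and 2 higher, and of the 15 adaptors 6 were lower and 1 higher. The median difference was -0.19 for integrin chains and -0.23 for adaptors, and 0.0018 for all genes.

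**Figure D1:**
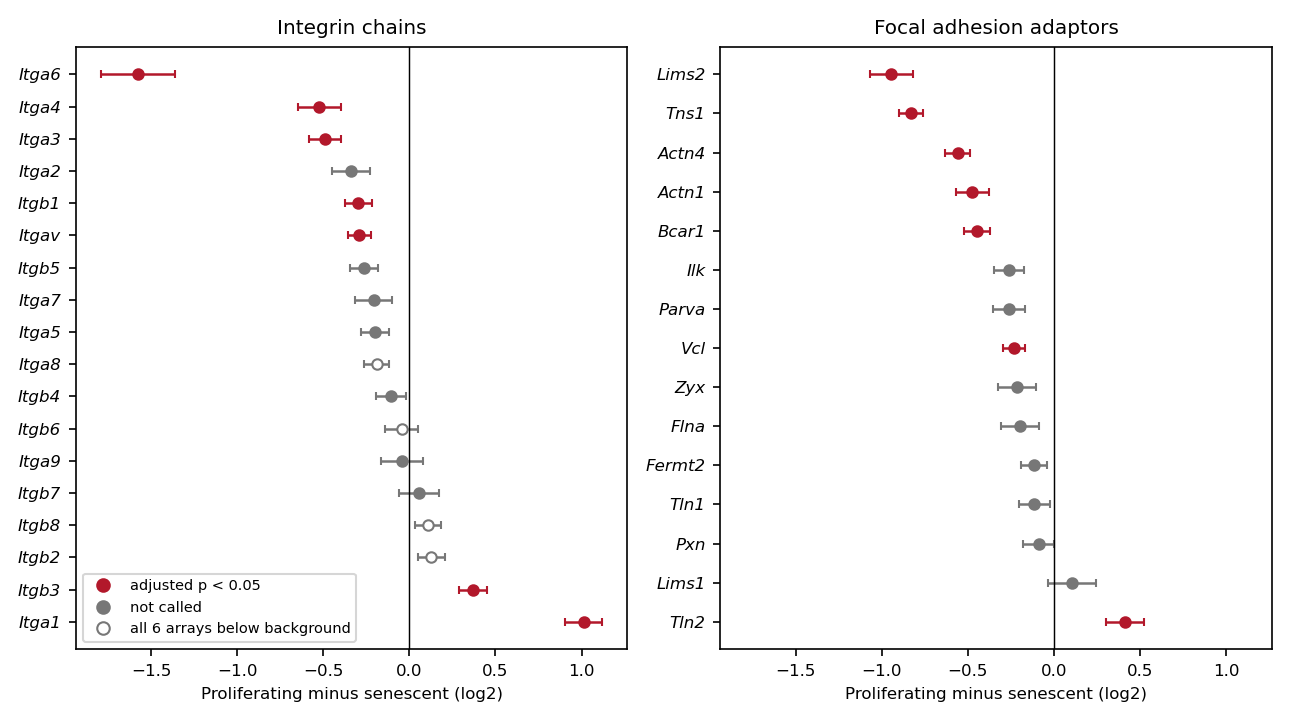
Difference between proliferating and senescent cells for each measured integrin chain (left) and adaptor (right), as the log2 difference with the SE of the limma fit (3 arrays per group); red marks an adjusted p below 0.05 and open circles genes below background on all 6 arrays. Most points lie left of 0, and Itga6 (-1.58), Lims2 (-0.94) and Itga1 (1.01) stand farthest out.

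Without proliferating replicate 1 or 3, or senescent replicate 2 or 3, the number of integrin chains called lower was 3. Of the 14 calls, 8 were made in every fit with 1 array left out and in the other settings tried, apart from scaling to the spike-ins: Itga1, Itga3, Itga6, Actn1, Actn4, Tns1, Lims2 and Bcar1. When arrays were scaled to the spike-ins, the median over all 18193 genes stood at 0.60, and 8 of the 11 genes called lower were above 0 although below that median. Of the 11, only Itga6 was still called lower. Tns1 (-0.23, adjusted p = 0.255) and Lims2 (-0.35, adjusted p = 0.0925) stayed below 0 but lost the call. All differences given here thus stand against the other genes of the same array. The arrays of the 2 groups did not overlap for 17 of the 33 genes on the lower side and 3 on the higher side, where the background was 17.4% lower and 19.6% higher.

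Of the 2 measured collagen-binding chains, 1 was higher in proliferating cells (10.5% of all genes were higher) and the other did not pass. Itga1, whose product pairs with the beta 1 chain to bind collagens, read 7.38, 7.61 and 7.67 on the proliferating arrays, against 6.69, 6.54 and 6.39 on the senescent arrays. Every proliferating array was above every senescent array, and the difference was 1.01 ± 0.11 (SE, n = 3 per group, adjusted p = 5.44e-04). The other probe set of Itga1, with a mean below background, gave 0.26 and did not pass (adjusted p = 0.188 in a fit over all probe sets). Itga2, the alpha chain of the platelet and epithelial collagen receptor, read 6.18, 6.00 and 6.12 in proliferating and 6.22, 6.48 and 6.62 in senescent cells. Its groups did not overlap either, yet its difference of -0.34 ± 0.11 did not pass (adjusted p = 0.0642). It passed without senescent replicate 1 (-0.45, adjusted p = 0.0226). The difference between the changes of Itga1 and Itga2 was 1.35 ± 0.24 (SE of the within-array difference), with an exact two-sided permutation p of 0.1, the smallest possible (adjusted p = 0.117 over 7 pairs of related genes, chosen after their values were seen, as for the other pairs at p = 0.1).

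Of the 3 laminin receptor chains, 2 were lower in proliferating cells (9.49% of all genes were lower). Itga6 read 8.98, 8.15 and 8.11 on the proliferating arrays, against 9.95, 10.15 and 9.86 on the senescent arrays. The groups lay well apart, although proliferating replicate 1 was higher than its fellows, and the difference was -1.58 ± 0.22 (adjusted p = 0.00173), or -1.86 without that array. The alpha 6 chain pairs with beta 1 or, in hemidesmosomes, with beta 4. Itga3, the chain of the other widespread laminin receptor, read 9.26, 8.94 and 9.11 in proliferating cells and 9.61, 9.55 and 9.63 in senescent cells. All proliferating arrays were lower, with a difference of -0.49 ± 0.09 (adjusted p = 0.00724). The change of Itga6 exceeded that of Itga3 by -1.09 ± 0.24 (exact permutation p = 0.1). Itga7, the laminin receptor chain best known from muscle, stood just above background at 5.75 to 5.96 in proliferating and 5.83 to 6.21 in senescent cells and did not pass (-0.21, adjusted p = 0.246). Markers of epithelial and mesothelial cells differed in both directions beside these genes. Of 7 measured epithelial markers 2 were lower in proliferating cells, Krt18 (-1.57) and Krt19 (-0.58), and 1 was higher, Krt7 (0.69). The mean level of this list ranged from 8.30 to 8.55 on the proliferating arrays and from 8.49 to 8.55 on the senescent arrays. Of 6 mesothelial markers 3 were higher, Lrrn4 (1.80), Wt1 (1.11) and Gpm6a (0.57), and 2 were lower, Msln (-0.79) and Upk1b (-0.43). Of 9 endothelial markers, 6 were below background on every array, 0 were higher and 1 was lower, Cdh5 (-0.72). The part of these cell types in the result was not tested.

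Among the RGD-binding chains, Itgav was slightly lower. Its product pairs with several beta chains and binds vitronectin and latent transforming growth factor beta. It read 13.18, 13.23 and 13.20 on the proliferating arrays, against 13.45, 13.54 and 13.49 on the senescent arrays. The arrays of each group lay close together, and the difference was -0.29 ± 0.07 (1.22-fold lower, adjusted p = 0.0162). The call ended without proliferating replicate 3 (-0.29, adjusted p = 0.0618) and when all 5 probe sets of the gene, 2 of them below background, were averaged (-0.13, adjusted p = 0.268). Itga5, the alpha chain of the main fibronectin receptor, ranged from 7.28 to 7.45 in proliferating and 7.49 to 7.66 in senescent cells. Its difference of -0.20 ± 0.08 did not pass (adjusted p = 0.13, 95% interval from -0.38 to -0.014). Itga8, a chain known from stellate cells and kidney mesenchyme that binds nephronectin, was below background on all arrays.

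Of the related chains alpha 4 and alpha 9, which bind the vascular adhesion molecule VCAM1 and fibronectin or tenascin, Itga4 was lower in proliferating cells. It read 6.57, 6.80 and 6.81 in proliferating and 6.99, 7.45 and 7.31 in senescent cells, so that the nearest arrays of the groups were close. The difference was -0.52 ± 0.13 (adjusted p = 0.0211). The call ended without proliferating replicate 1 (-0.45, adjusted p = 0.0579), senescent replicate 2 (-0.42, adjusted p = 0.0736) or senescent replicate 3 (-0.49, adjusted p = 0.074), and with its 5 probe sets averaged (-0.20, adjusted p = 0.183), of which 4 were below background. Itga9 overlapped between the groups, at 6.05 to 6.10 in proliferating and 5.83 to 6.32 in senescent cells, and did not pass (-0.04 ± 0.12, adjusted p = 0.86).

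Of the 8 beta chains, 1 was lower and 1 higher in proliferating cells (25% called, against 20.0% of all genes). Itgb1, the shared partner of most matrix-binding alpha chains, read 12.12, 12.26 and 12.19 on the proliferating arrays, against 12.44, 12.58 and 12.45 on the senescent arrays. The groups did not overlap, and the difference was -0.30 ± 0.08 (1.23-fold lower, adjusted p = 0.0282). This call was made in only 1 of the 6 fits that left out an array, where the difference ranged from -0.33 to -0.25 and the adjusted p from 0.0461 to 0.0864. Itgb3, which with alpha v forms the classical vitronectin receptor, went the other way, with 6.97, 6.88 and 6.91 in proliferating and 6.68, 6.44 and 6.53 in senescent cells. All proliferating arrays were higher, by 0.37 ± 0.08 (adjusted p = 0.0142), but not with its 2 probe sets averaged (0.18, adjusted p = 0.152). Itgb5, the other vitronectin-binding partner of alpha v, read 10.62, 10.80 and 10.77 in proliferating and 10.93, 10.96 and 11.09 in senescent cells. The groups were apart, but the difference of -0.26 ± 0.08 just missed the threshold (adjusted p = 0.0537), and it passed with its 4 probe sets averaged (-0.29, adjusted p = 0.0226). Within arrays, the changes of Itgb3 and Itgb5 differed by 0.63 ± 0.12 (exact permutation p = 0.1).

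The remaining beta chains gave no call. The leukocyte chain Itgb2 and the epithelial and transforming growth factor beta activating chains Itgb6 and Itgb8 were below background on every array. Itgb4 of the hemidesmosome lay at background, from 5.50 to 5.76 in proliferating and 5.67 to 5.80 in senescent cells (-0.11 ± 0.09, adjusted p = 0.459). Itgb7, a partner of alpha 4 on lymphocytes, differed by 0.05 ± 0.12 (adjusted p = 0.813).

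**Figure D2:**
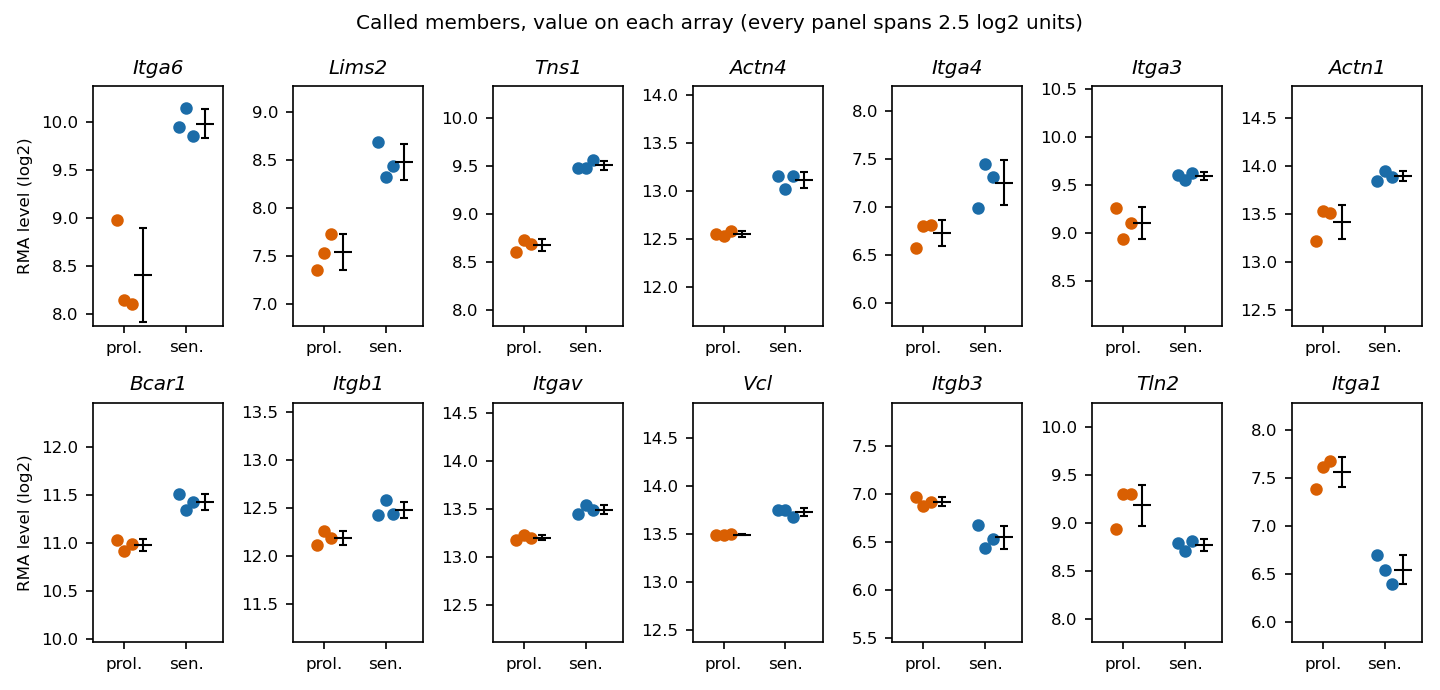
RMA level (log2) on each array for the 14 called genes, proliferating (prol., orange) left of senescent (sen., blue), with bars for the mean and SD of 3 arrays. The groups are apart in all 14 panels, and proliferating replicate 1 of Itga6 (8.98) lies above the other arrays of its group (8.15 and 8.11).

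Of the 8 linkers to actin, 4 were lower in proliferating cells, 1 was higher and 3 did not pass. Over all genes, 9.49% were lower and 10.5% higher. Tns1, a tensin that binds beta tails and actin in mature fibrillar adhesions, read 8.61, 8.73 and 8.69 on the proliferating arrays, against 9.48, 9.48 and 9.56 on the senescent arrays. The spread within groups was small and the difference was -0.83 ± 0.07 (adjusted p = 1.87e-04). Actn4, an alpha-actinin that cross-links actin filaments, read 12.55, 12.53 and 12.58 in proliferating and 13.16, 13.02 and 13.16 in senescent cells. The groups were apart, with a difference of -0.56 ± 0.07 (adjusted p = 0.00127). Its relative Actn1 read 13.22, 13.54 and 13.51 in proliferating and 13.85, 13.96 and 13.88 in senescent cells. Its difference was -0.47 ± 0.10 (adjusted p = 0.0105), and the 2 alpha-actinin changes, read from the brightest probe set of each gene, differed by -0.08 ± 0.13 (exact permutation p = 0.7). The other 2 probe sets of Actn1 gave larger differences than that of Actn4, -0.97 and -1.09.

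Vcl, vinculin, which strengthens the talin to actin link under tension, read 13.49, 13.49 and 13.50 on the proliferating arrays, against 13.75, 13.76 and 13.68 on the senescent arrays. The small difference of -0.23 ± 0.06 passed (adjusted p = 0.0375), but the call was made in only 1 of the 6 fits without an array, and ended with the replicate number as a block (adjusted p = 0.0964). Tln2, the talin gene typical of muscle and brain, read 8.94, 9.31 and 9.31 in proliferating cells and 8.80, 8.70 and 8.81 in senescent cells. It was higher by 0.41 ± 0.11 (adjusted p = 0.0305), a call also made in only 1 of the 6 fits without an array, and lost with arrays centred on their median (0.34, adjusted p = 0.074). Tln1, the widespread talin, overlapped at 9.96 to 10.27 in proliferating and 10.23 to 10.27 in senescent cells and differed by -0.12 ± 0.09 (adjusted p = 0.445). Read from the brightest probe set of each gene, the talin changes differed from each other by 0.53 ± 0.06 (exact permutation p = 0.1). With all probe sets of each gene averaged, Tln2 gave 0.15 (adjusted p = 0.372) and Tln1 0.17 (adjusted p = 0.377). Flna, filamin A, ranged from 12.06 to 12.30 in proliferating and from 12.22 to 12.61 in senescent cells, and Zyx, the tension-sensing LIM protein zyxin, from 11.17 to 11.51 and from 11.44 to 11.68. Their differences of -0.20 and -0.21 did not pass (adjusted p = 0.281 and 0.225).

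Promoter sequence is shown for the called members whose window held a motif of 2 factors known to control cytoskeletal genes: serum response factor, which binds the CArG box, and the TEAD factors, which bind CATTCC. Both strands of the 250 bases before each gene's start were searched in the RefSeq promoter table (GRCm38.p6), which held 26 of the 36 listed genes with 32 promoters. A CArG box was present in 3 of the 32 promoters (9.38%) and in 1.47% of all 32851, and CATTCC in 4 (12.5%) and 12.6%. The 3 genes with a CArG box were Vcl, Fermt2 and, at 1 of its 2 listed starts, Itgb6. The 4 with CATTCC were Vcl, Itgb1, Actn4 and Flna. Fermt2, Itgb6 and Flna were not called. Among the 12 promoters of called genes, 1 held a CArG box and 3 held CATTCC. Of the called genes Vcl held both motifs, and Itgb1 and Actn4 held CATTCC on either strand, which reads GGAATG on the other. The sequences run 5′ to 3′ on the gene's strand, with the matches in capitals. The CArG box of Vcl begins 227 bases before the start and its CATTCC match 143 bases before.
Vcl, chr14:20929148-20929397, plus strand: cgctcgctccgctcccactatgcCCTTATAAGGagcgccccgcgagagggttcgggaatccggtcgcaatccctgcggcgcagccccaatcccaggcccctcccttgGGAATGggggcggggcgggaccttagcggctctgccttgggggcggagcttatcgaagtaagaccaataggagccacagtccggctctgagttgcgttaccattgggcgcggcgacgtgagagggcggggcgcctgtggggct
Actn4, chr7:28962333-28962582, minus strand: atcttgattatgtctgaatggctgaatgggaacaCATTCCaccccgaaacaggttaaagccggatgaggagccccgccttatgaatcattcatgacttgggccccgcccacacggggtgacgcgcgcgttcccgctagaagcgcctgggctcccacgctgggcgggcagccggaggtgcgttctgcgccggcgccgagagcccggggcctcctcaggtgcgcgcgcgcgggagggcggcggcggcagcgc
Itgb1, chr8:128685404-128685653, plus strand: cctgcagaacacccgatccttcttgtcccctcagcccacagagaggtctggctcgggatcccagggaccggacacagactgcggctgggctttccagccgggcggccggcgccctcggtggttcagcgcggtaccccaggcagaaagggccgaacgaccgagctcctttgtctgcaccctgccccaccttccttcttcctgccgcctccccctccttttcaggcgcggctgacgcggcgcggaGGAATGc

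Integrin-linked kinase, PINCH and parvin form a complex that joins beta tails to actin, with kindlin 2 recruiting it. Of these 5 genes, only Lims2, which encodes PINCH 2, passed (20%, against 20.0% of all genes). It read 7.36, 7.54 and 7.74 on the proliferating arrays, against 8.69, 8.32 and 8.45 on the senescent arrays. The groups were apart by more than their spread, with a difference of -0.94 ± 0.12 (adjusted p = 0.00142). The paralogue Lims1, PINCH 1, differed by 0.10 ± 0.14 with overlapping groups (adjusted p = 0.685), and the changes of Lims2 and Lims1 differed by -1.05 ± 0.21 (exact permutation p = 0.1). Ilk read 10.51 to 10.69 in proliferating and 10.73 to 10.94 in senescent cells, and Parva, alpha-parvin, 11.08 to 11.26 and 11.26 to 11.56 in these groups. Neither passed (-0.26 for both, adjusted p = 0.0702 and 0.0959), although both passed with a robust variance trend (adjusted p = 0.0282 and 0.0392). Fermt2, kindlin 2, ranged from 11.91 to 12.06 in proliferating and 12.04 to 12.16 in senescent cells and differed by -0.12 ± 0.08 (adjusted p = 0.351).

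Of the signalling scaffolds, Bcar1 was lower in proliferating cells. It encodes p130Cas, a substrate of Src and focal adhesion kinase that is stretched and phosphorylated at adhesions. It read 11.03, 10.91 and 10.99 on the proliferating arrays, against 11.51, 11.34 and 11.42 on the senescent arrays. The groups were clearly apart, with a difference of -0.45 ± 0.08 (adjusted p = 0.00431). Pxn, paxillin, a scaffold of nearly all focal adhesions, overlapped between groups at 10.96 to 11.24 and 11.11 to 11.26, and did not pass (-0.09 ± 0.09, adjusted p = 0.575).

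The 33 genes had 81 probe sets, of which 20 were lower and 3 higher in proliferating cells in a fit over all probe sets, where 12.4% of 45037 were called, 5.99% lower and 6.39% higher. Of 19 genes with more than 1 probe set above background, 13 had all of these on the same side of 0. Both probe sets of Itga6 were lower (-1.58 and -1.69), as were both of Bcar1 (-0.45 and -0.54) and all 3 of Tns1 (-0.83, -0.94 and -0.64). Dimmer probe sets gave the larger differences for Actn1, with -0.47 in the brightest and -0.97 and -1.09 in the others, and for Vcl, with -0.23 and -0.54 (adjusted p = 0.0729 and 0.0115 over probe sets). Itgb1 differed by -0.30 in its brightest probe set and -0.38 in the next (adjusted p = 0.0523 and 0.0151 over probe sets). For Tln2 the others gave 0.02 and 0.01, and for Itgb3 -0.02. The genes Itga5, Itgb5, Parva, Pxn and Bcar1 were read from probe sets whose suffix (_s_at or _x_at) marks possible binding to more transcripts than 1, so their values may hold signal from relatives. For Parva the brightest probe set without that suffix gave -0.03 (adjusted p = 0.875).

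**Figure D3:**
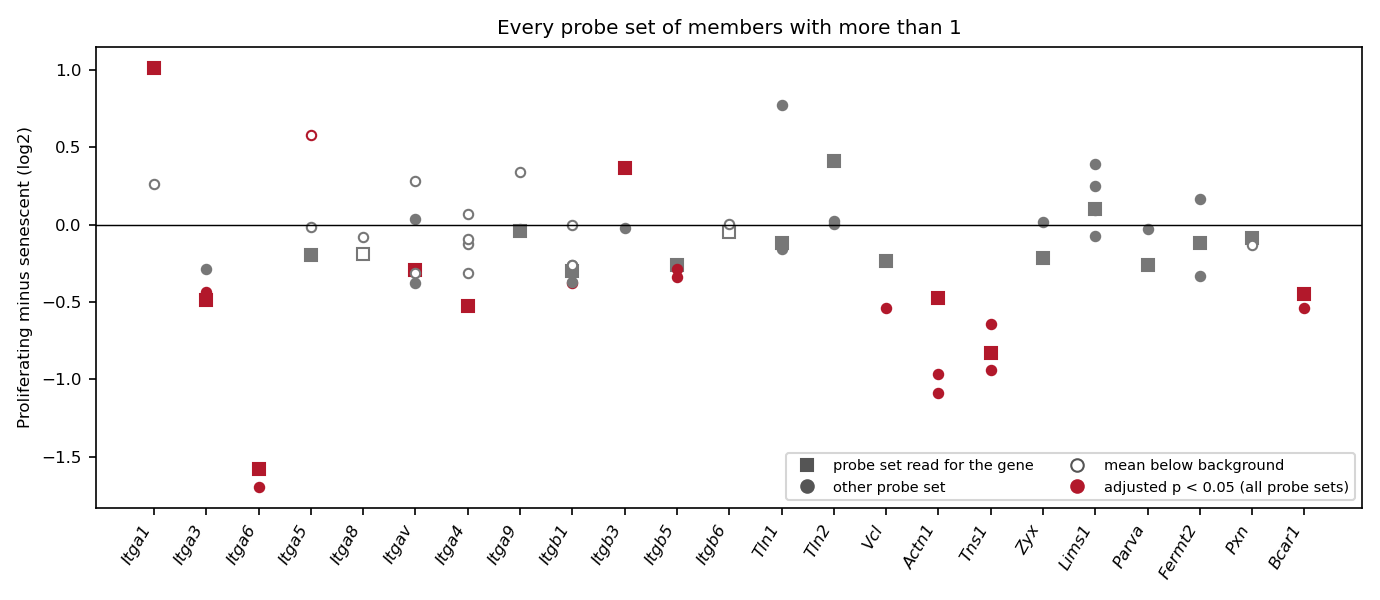
Log2 difference, proliferating minus senescent, of every probe set for the 23 genes with more than 1. Squares mark the probe set read for the gene, open symbols a mean below background and red an adjusted p below 0.05 over all probe sets; the probe sets of Itga6, Tns1, Actn1 and Bcar1 all lie below 0, whereas those of Lims1, Itgav and Fermt2 lie on both sides.

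Among further genes of the adhesion plaque, more were lower than higher in proliferating cells. Of 70 further adhesome genes listed, 66 were measured, 23 were lower and 2 higher in proliferating cells, with a median of -0.11. The share called was 37.9%, against 20.0% of all genes and 27.4% of those with a mean above background. Like the members, this list was chosen with earlier results of these data known. Parvb, the second parvin, averaged 8.51 in proliferating and 9.61 in senescent cells, a difference of -1.11 ± 0.09 (adjusted p = 1.93e-04). Its change and that of Parva differed by -0.85 ± 0.06 (exact permutation p = 0.1). Csrp1, a LIM protein on actin bundles, was 1.92-fold lower (-0.94 ± 0.08), Sorbs2, a vinculin-binding adaptor, 1.63-fold lower (-0.71 ± 0.11) and Ldb3, a PDZ and LIM protein of the muscle Z-disc, 1.65-fold lower (-0.72 ± 0.16). The call of Ldb3 ended without senescent replicate 1 or 2 (adjusted p = 0.0566 and 0.0615). The adhesion kinase genes Src and Ptk2b, named after their values were seen, differed by -0.69 ± 0.08 and -0.51 ± 0.06. The 2 that were higher were Dock1, a Rac activator downstream of p130Cas (0.39 ± 0.09), and Kank1, a talin-binding protein at the rim of adhesions (0.35 ± 0.08). The call of Dock1 ended in 4 of the 6 fits without an array and that of Kank1 without proliferating replicate 3 (0.35, adjusted p = 0.0557). Both calls also ended with all probe sets of the gene averaged (0.19 and 0.20, adjusted p = 0.103 and 0.0569). In the fit over all probe sets, the dimmer probe sets of Parvb and Ptk2b gave -0.40 and -0.09 and did not pass. Those of Csrp1 and Src gave -0.82 and -0.53 and passed. The dimmer probe sets of Sorbs2 gave -0.75, which passed, and -0.17 and 0.07, which did not (adjusted p = 0.295 and 0.707).

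Ligand genes of integrins moved both ways. Their list holds matrix proteins beside cell-surface ligands and growth factors. Of 38 listed genes 35 were measured, 10 were higher and 9 lower in proliferating cells, with a median of -0.03. The share called was 54.3%, against 20.0% of all genes and 27.4% of those with a mean above background. By direction, 10.5% of all genes were higher and 9.49% lower. The ligand list, too, was chosen with earlier results of these data known. Emilin1, an elastic fibre protein that binds alpha 4 and alpha 9 integrins, averaged 10.43 in proliferating and 9.15 in senescent cells (1.28 ± 0.08, adjusted p = 4.4e-05). Postn, periostin, a ligand of alpha v integrins, was 1.90-fold higher (0.93 ± 0.08). Lama1, a laminin chain, and Tgfbi, a matrix protein bound by several integrins, were below background on all senescent arrays, and the probe sets read were at least 1.76-fold and at least 2.58-fold higher, the group mean against the background level. Tgfbi read 8.22, 6.14 and 6.46 on the proliferating arrays, against 5.06, 4.85 and 4.97 on the senescent arrays. Proliferating replicate 1 stood far above the others, and without it the difference was 1.35 in place of 1.98 and the bound at least 1.66-fold. Its call ended with the brightest probe set without the _s_at or _x_at suffix (1.12, adjusted p = 0.0799), under the robust variance model (adjusted p = 0.0579) and without senescent replicate 1, 2 or 3 (adjusted p = 0.0518, 0.0731 and 0.0615). The fibrillar collagen genes Col3a1, Col1a1 and Col1a2, named after their values were seen, were higher by 0.93, 0.56 and 0.49. In the fit over all probe sets, the other probe set of Col1a1 gave 0.26 and did not pass (adjusted p = 0.0882). The other probe sets of Col3a1 (1.36) and Col1a2 (0.87 and 1.37) passed.

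The ligand genes with the largest falls were Thbs1, thrombospondin 1 (-0.92 ± 0.08), Nid1, nidogen 1, which bridges laminin and collagen IV (-0.87 ± 0.14), Ccn2, a matricellular growth factor (-0.73 ± 0.12), and Npnt, nephronectin, the ligand of the alpha 8 chain (-0.72 ± 0.10). Each was lower on all 3 proliferating arrays than on any senescent array. Fn1, fibronectin, did not pass, with 14.54 to 14.58 in proliferating and 14.49 to 14.58 in senescent cells (0.02 ± 0.07, adjusted p = 0.863).

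**Figure D4:**
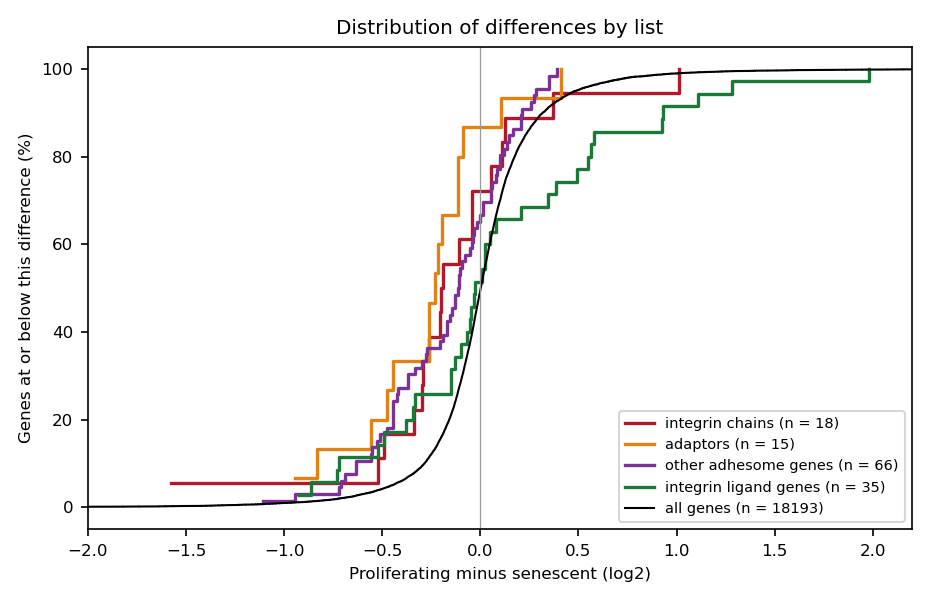
Cumulative share of genes (%) against the log2 difference, proliferating minus senescent, for each list and all 18193 genes. The curves of integrin chains, adaptors and other adhesome genes run left of that of all genes over most of the negative range (medians -0.19, -0.23 and -0.11 against 0.0018), and that of ligand genes is the widest on the right.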

How the data were processed

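The deposited log2 levels, 1 for each probe set, were computed by the authors using RMA, per the submitters' processing notes, from biotin-labelled RNA of 6 samples. RMA equalises the distribution of all arrays, so a shift shared by most genes is removed, and it compresses changes of very dim and very bright probe sets. No source used here gives the software version, the chip description file or any batch. Of 45101 probe sets, 64 were controls, 34958 had 1 gene symbol, 932 had several and 9211 are unnamed here. Symbols were updated by Entrez number (34754 matched, GRCm38.p6). Proliferating and senescent arrays were set against each other in limma 3.58.1 (lmFit, then eBayes; R 4.3.3) over all 18193 genes, with Benjamini-Hochberg adjustment and no covariates. The fit was first tested on simulated data. Changes of 7 gene pairs, chosen after their values were seen, were compared with exact two-sided permutation tests (adjusted p = 0.117 for 6 of them and 0.7 for the other). Figures were drawn with matplotlib 3.10.9. The number of arrays limits the precision.

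All members are named. Of the lists of other adhesome and ligand genes, up to 4 called genes with the largest rise and fall are named, beside those said to be chosen later. Members and lists were chosen with earlier results of these data known. Alternatives covered the probe sets read, the fit over all probe sets, a filter on dim genes, the variance model, 3 scalings, the replicate block and leaving out each array. Integrin tail sequences were planned but not analysed here.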

Additional observations from a re-analysis of the deposited data

How the results depend on the processing

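Over the 33 genes and the alternatives that gave a value, 403 differences kept direction and side of the threshold, 31 lost a call, 24 gained one and 33 turned sign. Of these, 23 turned under scaling to the poly-A spike-in controls, where the median of all genes was 0.60: Itga2 0.26, Itga3 0.11, Itga4 0.073, Itga5 0.40, Itga7 0.39, Itga8 0.41, Itga9 0.55, Itgav 0.31, Itgb1 0.30, Itgb4 0.49, Itgb5 0.33, Itgb6 0.55, Tln1 0.48, Vcl 0.36, Actn1 0.12, Actn4 0.037, Flna 0.40, Zyx 0.38, Ilk 0.33, Parva 0.34, Fermt2 0.48, Pxn 0.51 and Bcar1 0.15. Ptk2b of the other adhesome genes turned too (0.084). There, calls higher and lower were 9 and 1 for integrin chains (median 0.40), 5 and 0 for adaptors (median 0.36; 6 and 0 at an unadjusted p under 0.05, limma), 41 and 1 for other adhesome genes, 26 and 0 for ligand genes (26 and 0 unadjusted), and 15145 and 175 of all genes, 15320 in total. With arrays centred on their median, or on genes of middle level, 8 integrin chains were lower (median -0.26) and 0 adaptors higher (1 unadjusted). With all probe sets of a gene averaged, 1 integrin chain (median -0.12), 0 adaptors (0 unadjusted) and 1 other adhesome gene were higher. In the fit over all probe sets 0 adaptors were higher (1 unadjusted). With genes above background only, the integrin median was -0.24, and with a robust variance trend 4 other adhesome genes were higher. Without 1 array, 3 to 5 integrin chains were lower (median -0.22 to -0.16), 0 to 1 adaptors (1 unadjusted in each fit) and 0 to 3 other adhesome genes higher, and 1129 to 1563 of all genes lower. The other turns of sign were all of genes with no call on either side. They were Itga5 (0.044), Itga9 (0.090), Tln1 (0.17) and Fn1 (-0.030) with probe sets averaged, Itgb7 (-0.015) and Fn1 (-0.046) under both centrings, and, over the fits without 1 array, Itga9 (-0.19 to 0.055), Itgb6 (-0.14 to 0.026), Itgb7 (-0.043 to 0.19) and Lims1 (-0.031 to 0.22), each turned by leaving out a senescent array. The cause of these shifts was not tested. The replicate numbers share no stated source, and deviations of equal numbers correlated at 0.094, -0.068 and -0.15. The replicate block ended the call of Vcl (-0.23, adjusted p = 0.0964) and no other call among these 33 genes.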

Other observations

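Of the integrin chains outside the 36 genes that are known mainly from blood cells, 4 measured ones lay below background and Itga2b lay above it. Itgam and Itgax of macrophages and Itgae and Itgal of lymphocytes were below background on every array. Itga2b, the platelet alpha chain that pairs with the beta 3 chain, read 8.77, 8.39 and 8.38 on the proliferating arrays, against 8.08, 8.36 and 8.25 on the senescent arrays, and did not pass (0.28 ± 0.12, adjusted p = 0.161). Of the 5 measured platelet and megakaryocyte markers, Pf4 and Ppbp were below background on all 6 arrays. The other 3 were above it on all 6: Itga2b itself, Gp9 with means of 6.16 in both groups, and Gp1bb with means of 6.90 in proliferating and 7.10 in senescent cells. Itga10, the fourth collagen-binding chain, ranged from 6.00 to 6.08 in proliferating and from 6.08 to 6.11 in senescent cells (-0.05, adjusted p = 0.656).

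One probe set of Itga5 with a mean of 4.75, below background, was higher in proliferating cells by 0.58 ± 0.10 (adjusted p = 0.0068 over all probe sets), whereas the 2 brighter ones gave -0.20 and -0.19. A dim probe set of Tln1, at 5.51, 6.11 and 6.50 on the proliferating arrays and 5.15, 5.28 and 5.37 on the senescent arrays, differed by 0.77 ± 0.22 (adjusted p = 0.0571), and its brightest by -0.12.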
